A study of Saccharomyces cerevisiae with 51 samples.

Results

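The step from the RC start label to the RC mid label was followed in a budding yeast culture that lacks ARP5, across the 6510 of 6840 genes that averaged 1 FPKM or more. It rests on 4 of the 51 samples of the series: 2 RNA libraries, A and B, labelled RC mid, and 2 labelled RC start, all of genotype CEN.PK ARP5::KAN, in which a drug-resistance cassette replaces ARP5 (here arp5∆). ARP5 encodes an actin-related protein of the INO80 nucleosome remodelling complex, which the title of the series links to metabolism and cell division. The cells grew in continuous culture, and RC stands for reductive charging in the published cycle that the labels cite. A and B are technical replicates, since RNA was prepared separately from 1 culture, so every p-value below measures the spread between preparations and not between cultures. Wild-type libraries of CEN.PK serve for comparison, 2 each at RC mid, RC start, OX late and OX mid. Both genotypes share the strain background and the culture regime, and the sources used here do not give how far apart in time the phases were sampled.

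Yeast in such a culture can pass together through rounds of high and low oxygen consumption. In the oxidative (OX) phase the cells make ribosomes, amino acids and nucleotides, in reductive building (RB) they divide and build mitochondria, and in reductive charging (RC) they express stress, storage and fatty acid oxidation genes. Growth genes are driven by the TORC1 and protein kinase A pathways, which report nutrients, while storage carbohydrates such as glycogen and trehalose are laid down when growth slows.

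Reads on protein-coding genes, recovered from the values, numbered 7.48 M and 6.90 M at RC mid and 8.70 M and 6.83 M at RC start. A and B correlated with r = 0.992 at each phase across 6510 genes, which are not independent replicates. FPKM are fragments per kilobase of gene, scaled by the authors with a divisor for each library. The divisors recovered from the values were 8.68 M and 8.05 M at RC mid, above the reads on protein-coding genes. At RC start they were 8.25 M and 6.53 M, below those reads, so the divisor was not the read total. Among genes that averaged 10 FPKM or more, libraries A and B were 2-fold or more apart for 2 genes at RC mid and for 9 at RC start. ARP5 (chromosome XIV, 512668 to 514935, sacCer3, protein-coding) was listed at 0 in both RC mid and both RC start libraries, against 50.01 and 47.6 FPKM on average in wild type at the same labels. The summed level of 6 a-cell markers was 23333 and 23494 FPKM at RC mid, against 25320.2 and 24348 FPKM at RC start. Most of that sum came from MFA1 and MFA2, whose log2 changes were opposite (0.25 and -0.41). For 4 alpha-cell markers, mostly MF(ALPHA)1, the sum was 563 and 592 FPKM at RC mid, against 815 and 779 FPKM at RC start. For 5 genes of diploid or sporulating cells it was 73.0 and 73.7 FPKM at RC mid, against 52.9 and 59.7 FPKM at RC start. None of the a-cell or alpha-cell markers was called, no marker was at 0 in these 4 libraries, and 1 of the 5 diploid or sporulation genes, SPR3, was called higher. SPS4, another of the 5, had a lower value at RC mid (-0.56) and was not called. The part of cell types in the changes below was not tested, and in bulk RNA fewer cells of a type and less RNA per cell cannot be told apart.

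Between the phases, growth genes were lower at RC mid, with 63 of 69 large-subunit ribosome assembly genes called. Storage and histone genes were higher, with 14 of 20 trehalose and glycogen genes and 7 of 8 core histone genes called. A gene was called where it moved by 1 or more on the log2(FPKM + 1) scale, that is 2-fold, with an adjusted p (limma, Benjamini-Hochberg) below 0.05. Of 6510 genes tested, 220 were called higher at RC mid (3.38%) and 662 lower (10.2%), while the median change of all genes was -0.0017. The falls were also larger: 98 of the 662 fell by at least 2 on the log2 scale and 17 of the 220 rose as much. All 882 called genes had both RC mid libraries on 1 side of both RC start libraries, which the call itself makes likely. The split depended on the scaling. Quantile normalization gave 359 higher and 530 lower, and setting the library medians equal gave 317 and 554, so that 40.4% and 36.4% of the called genes were higher, against 24.9% with the deposited scaling. The deposited FPKM summed to 1.05 M in each RC mid library and to 1.26 M and 1.25 M in the RC start libraries.

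**Figure D1:**
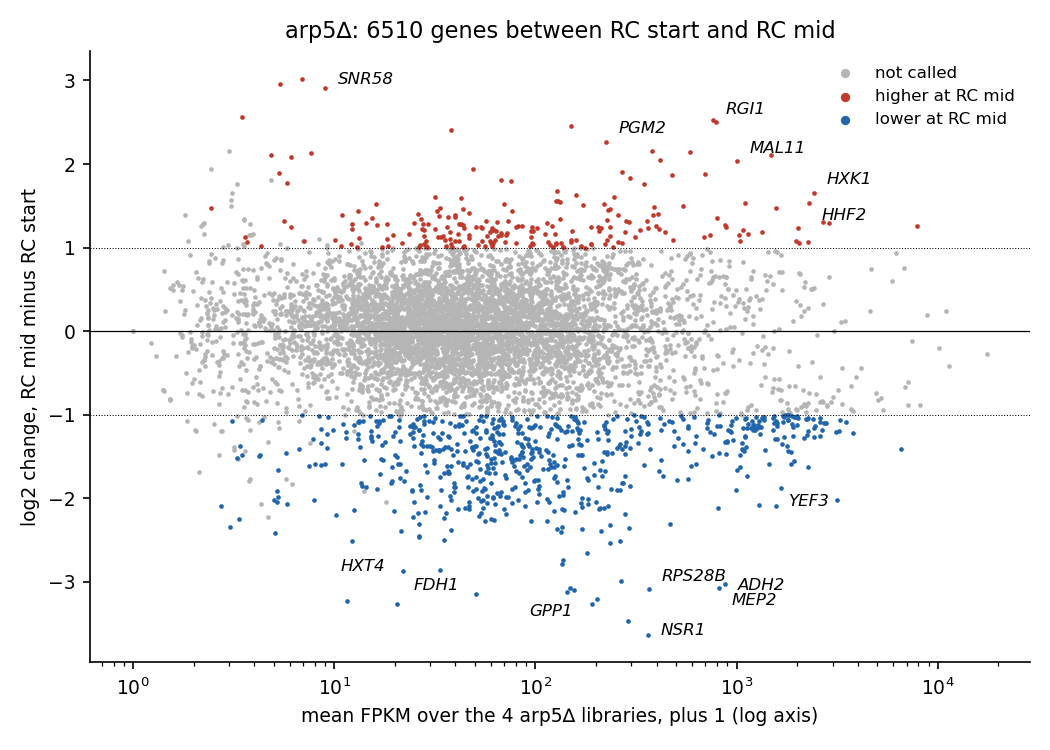
Change of each gene between the arp5∆ phases. The x axis (log) is the mean FPKM over the 4 libraries plus 1, the y axis the log2 change as RC mid minus RC start, each point is 1 gene, dotted lines mark a change of 1 either way, and the 662 genes called lower (blue) reach further from 0 than the 220 called higher (red).

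Ribosome assembly had the lowest medians of the 41 lists. Ribosomes are built in the nucleolus, where a precursor RNA is transcribed by RNA polymerase I, cut and modified, and loaded with proteins. Of 69 genes for assembly of the large subunit 63 were called lower and none higher, with a median change of -1.82. The largest fall of any gene with a standard name was that of NSR1 (chromosome VII, 806412 to 807656), which encodes a nucleolar protein of precursor processing. NSR1 had 53.6 and 53.2 FPKM at RC mid, against 674 and 671 FPKM at RC start, which is 12.6-fold lower (log2 change -3.63 ± 0.08 SE, adjusted p = 1.02e-15). DBP2, an RNA helicase gene, followed with 40.4 and 36.9 FPKM at RC mid, against 367 and 361 FPKM at RC start (-3.20 ± 0.09). In both genes the 2 libraries of a phase lay close together and far from those of the other phase. RSA4, a late assembly factor gene, changed by -2.86 ± 0.12 and NOG2, which encodes a GTPase that acts late in the nucleus, by -2.74 ± 0.12. All 69 members had lower values at RC mid, from -3.63 to -0.44, the 6 that were not called included.

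Genes of the small-subunit processome and of the small nucleolar ribonucleoproteins, which cut and methylate the precursor, moved with them: 59 of 64 were called lower, none higher, and the median was -1.72. BFR2, a processome gene, had 11.6 and 10.99 FPKM at RC mid, against 63.8 and 61.8 FPKM at RC start (-2.38 ± 0.07). SNU13, a core protein of box C/D particles, had 152 and 159 FPKM at RC mid, against 802 and 752 FPKM at RC start (-2.31 ± 0.07). UTP18 changed by -2.24 ± 0.15 and NOP1, the fibrillarin gene that methylates the precursor, by -2.18 ± 0.09. Their spread was narrower than that of the large-subunit genes, with -2.38 as the lowest value and -0.38 as the highest. The small-subunit list took 0.310% and 0.311% of the summed FPKM at RC mid, against 0.792% and 0.790% at RC start. The large-subunit list took 0.307% and 0.302% at RC mid, against 0.917% and 0.926% at RC start.

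The messages of the proteins of the finished ribosome were more abundant and fell less per gene. All 137 measured cytosolic ribosomal protein genes had lower values at RC mid, and 97 were called (median -1.07). Together they took 15.8% of the summed FPKM in each RC mid library, against 25.8% and 26.2% in the RC start libraries. The median lay next to the 2-fold minimum and the count moved with the scaling: 60 were called lower with equal medians and 13 with quantile normalization, where the list's median was -0.68. RPS28B stood apart with 77.4 and 74.3 FPKM at RC mid, against 662 and 644 FPKM at RC start (-3.09 ± 0.07, adjusted p = 1.71e-15). Its twin RPS28A, the far more abundant copy, had 2604 and 2552 FPKM at RC mid, against 5067 and 4924 FPKM at RC start (-0.95 ± 0.04) and was not called. RPL8A changed by -2.11 ± 0.05, RPL7B by -2.09 ± 0.06 and RPL22B by -1.72 ± 0.08. Of 59 gene pairs that encode the same protein, both copies were called in 33, 1 copy in 20 and neither in 6. The copies differed by a median of 0.19 on the log2 scale and by at least 1 in 2 pairs, RPS28 and RPL7. The values nearest to 0 included those of RPL41A and RPL41B, -0.11 and -0.20. Copies with near-identical sequence can share reads, so small differences within a pair are uncertain.

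**Figure D2:**
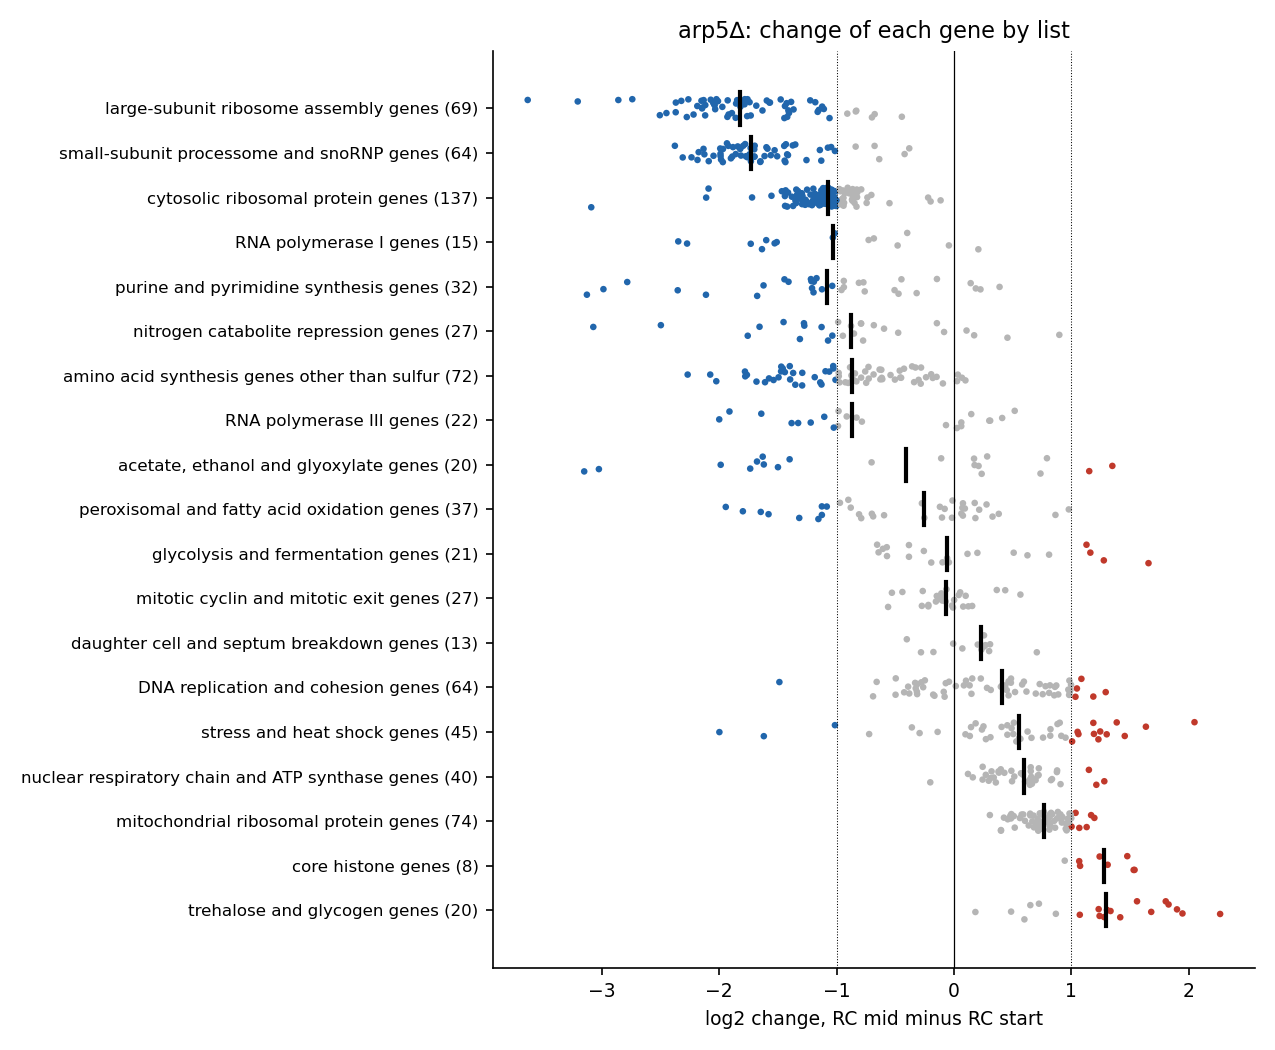
Change of each member gene in 19 lists. Each point is 1 gene at its log2 change, RC mid minus RC start in arp5∆, red where called higher, blue where called lower and grey otherwise, black bars are list medians, numbers in brackets are the genes tested, and ribosome assembly lies furthest left while trehalose, glycogen and histone genes lie furthest right.

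Among the RNA polymerases that serve translation, most enzyme subunit genes were called lower and their factors mostly were not. RNA polymerase I makes the large ribosomal RNA and RNA polymerase III makes transfer RNA and the 5S ribosomal RNA. Of 15 RNA polymerase I genes 9 were called lower and none higher (median -1.03). RPA49 had 43.2 and 43.3 FPKM at RC mid, against 225 and 224 FPKM at RC start (-2.35 ± 0.13), and RPA135, RPA12 and RPA190 changed by -2.27, -1.73 and -1.64. Of 22 RNA polymerase III genes 8 were called lower (median -0.87), among them RPC19 and RPC40, whose products sit in both enzymes (-1.999 ± 0.07 and -1.64 ± 0.08), RPC82 (-1.91) and RPC17 (-1.38). Split by role, a split made after the values were seen, all 7 enzyme subunits on the RNA polymerase I list were called lower. On the RNA polymerase III list, which also counts shared subunits such as RPC19 and RPC40, 8 of 13 enzyme subunits were called lower. Of the factors, 2 of 8 for RNA polymerase I were called lower, RRN7 and RRN11, and 0 of 9 for RNA polymerase III, whose changes lay between -0.07 and 0.52.

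The machinery that reads messages followed the same direction with smaller changes. Of 21 cytosolic aminoacyl-tRNA synthetase genes 6 were called lower and none higher, with a median of -0.76 and all 21 below 0. WRS1, for tryptophan, changed by -1.29 ± 0.08, MES1, for methionine, by -1.22 ± 0.08, CDC60, for leucine, by -1.17 ± 0.05 and YHR020W, for proline, by -1.21 ± 0.09. Of 37 translation initiation and elongation factor genes 8 were called lower (median -0.74). YEF3, the fungal elongation factor 3 gene, had 589.8 and 597 FPKM at RC mid, against 2571 and 2512 FPKM at RC start (-2.10 ± 0.04, adjusted p = 7.32e-16). TEF1, 1 of a near-identical pair for elongation factor 1A, changed by -1.59 ± 0.07. ANB1, the form of eIF5A known from low oxygen, stood at 3.40 and 2.10 FPKM at RC mid, against 10.2 and 10.3 FPKM at RC start (-1.61 ± 0.30). Its abundant twin HYP2 had 5881 and 5620 FPKM at RC mid, against 10920 and 10337 FPKM at RC start (-0.89), and was not called. Copies of similar sequence can share reads, so the low values of ANB1 are uncertain. GCD10, which encodes a subunit of a transfer RNA methyltransferase, changed by -1.46 ± 0.10.

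Building blocks fell with the ribosome. Of 72 amino acid synthesis genes outside sulfur metabolism 29 were called lower and none higher (median -0.87). SER2, the last enzyme gene of serine synthesis, had 16.2 and 20.3 FPKM at RC mid, against 93.9 and 88.8 FPKM at RC start (-2.27 ± 0.11). SHM2, which passes the carbon of serine to folate, had 502 and 483 FPKM at RC mid, against 2108 and 2049.9 FPKM at RC start (-2.08 ± 0.05). For ILV5, in branched-chain synthesis, the values were 1258 and 1226 FPKM at RC mid, against 5159 and 4953 FPKM at RC start (-2.02 ± 0.04), and ILV3 of the same route changed by -1.78 ± 0.05. In all 4 genes both RC mid libraries lay far below both RC start libraries. Of 33 genes for sulfate assimilation, methionine and S-adenosylmethionine 11 were called lower and none higher (median -0.74), led by STR3, a cystathionine lyase gene (-1.56 ± 0.07), the S-methylmethionine permease gene MMP1 (-1.38 ± 0.10), SAM1 (-1.37 ± 0.07) and the sulfate permease gene SUL1 (-1.23 ± 0.04).

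Nucleotide genes held some of the largest single falls. Of 32 purine and pyrimidine genes 17 were called lower and none higher (median -1.08). AAH1, the adenine deaminase gene, had 28.5 and 28.8 FPKM at RC mid, against 259 and 257 FPKM at RC start (-3.13 ± 0.11, adjusted p = 2.32e-13). FCY2, a purine and cytosine permease gene, had 58.9 and 59.0 FPKM at RC mid, against 488 and 459 FPKM at RC start (-2.99 ± 0.04). The CTP synthase gene URA7 had 31.7 and 35.2 FPKM at RC mid, against 235 and 237 FPKM at RC start (-2.78 ± 0.10), and GUA1, for GMP synthesis, changed by -2.35 ± 0.05. In each of them both RC mid libraries lay more than 4-fold below both RC start libraries. The second CTP synthase gene, URA8, was not called (0.19 ± 0.08).

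Genes for poor nitrogen sources, which are kept off by nitrogen catabolite repression when good sources abound, were lower too: 11 of 27 were called lower and none higher (median -0.88), with 10 lower and 1 higher under quantile normalization. MEP2, the high-affinity ammonium permease gene, had 173 and 175 FPKM at RC mid, against 1497 and 1438 FPKM at RC start, 8.45-fold lower (-3.07 ± 0.05, adjusted p = 6.39e-17). The other ammonium permease genes MEP1 and MEP3 were just under the 2-fold minimum, at -0.95 and -0.99. The allantoin permease gene DAL4 had 8.82 and 10.4 FPKM at RC mid, against 62.1 and 55.3 FPKM at RC start (-2.50 ± 0.13), the GABA permease gene UGA4 changed by -1.76 ± 0.12 and DAL3, for allantoin breakdown, by -1.66 ± 0.10. DIP5, an amino acid permease gene, had the highest value of the list, 0.90, and was not called. MEP2 lies next to AAH1 on chromosome XIV (357453 to 358952 and 359596 to 360639).

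**Figure D3:**
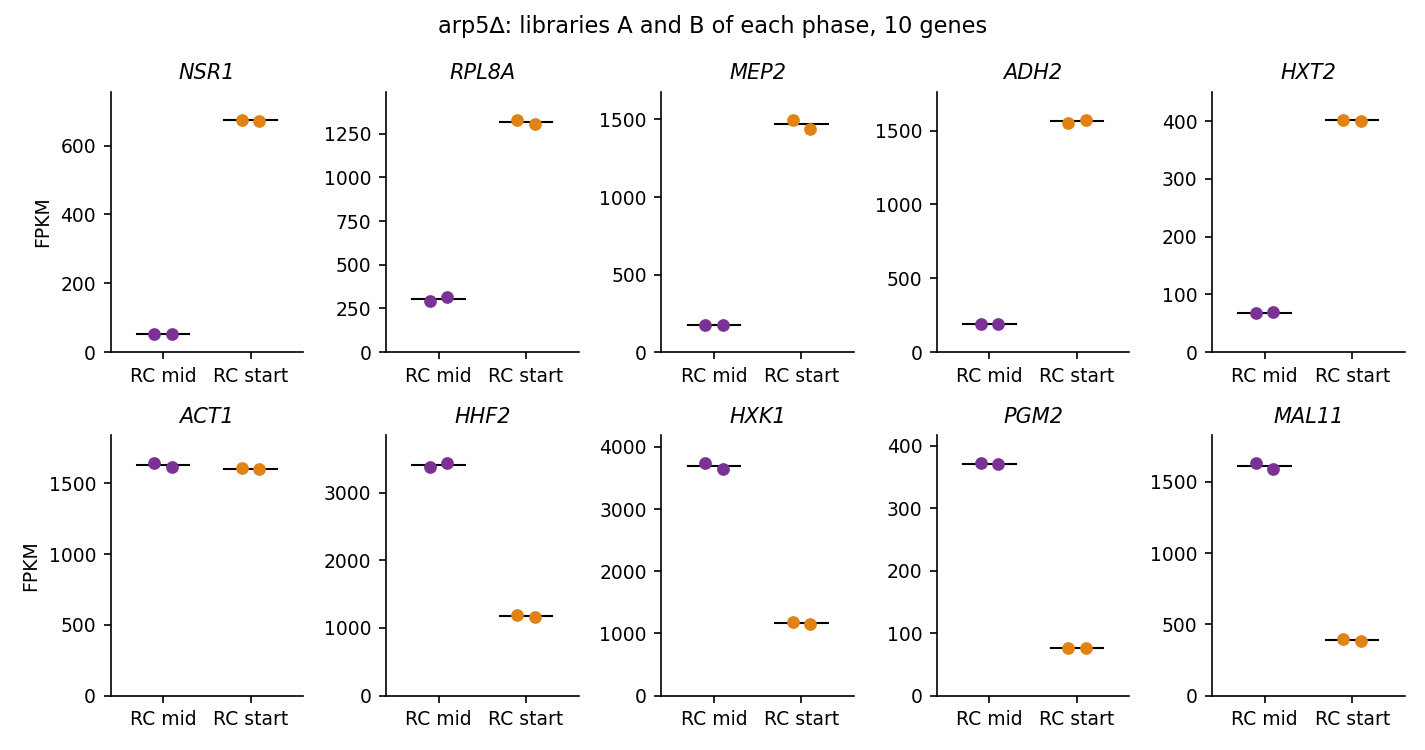
FPKM of 10 genes in each arp5∆ library. In each panel the 2 RC mid libraries stand on the left and the 2 RC start libraries on the right, on an axis that starts at 0, points are libraries A and B, bars are their means, the groups of the 9 genes other than ACT1 lie far apart and those of ACT1 lie close together.

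Carbon genes divided by pathway. Among 20 genes for acetate, ethanol and the glyoxylate cycle 9 were called lower and 2 higher (median -0.41). ADH2 (chromosome XIII, 873291 to 874337), the alcohol dehydrogenase gene for ethanol consumption, had 191 and 192 FPKM at RC mid, against 1552 and 1572 FPKM at RC start, 8.17-fold lower (-3.02 ± 0.04, adjusted p = 5.49e-18). FDH1, a formate dehydrogenase gene with a close sequence relative, had 9.89 and 8.68 FPKM at RC mid, against 91.7 and 88.5 FPKM at RC start (-3.15 ± 0.14). The cytosolic acetaldehyde dehydrogenase gene ALD6 had 523 and 518 FPKM at RC mid, against 1748 and 1720.3 FPKM at RC start (-1.74 ± 0.04). DAL7, a malate synthase gene of allantoin use, changed by -1.99 ± 0.11. Against these, CAT8, an activator gene of non-fermentable carbon use, had 21.03 and 20.97 FPKM at RC mid, against 6.93 and 8.41 FPKM at RC start (1.35 ± 0.10), and ACH1, which handles acetyl-CoA in mitochondria, had 1027 and 999 FPKM at RC mid, against 457 and 453 FPKM at RC start (1.15 ± 0.05). Of 37 peroxisomal and fatty acid oxidation genes 9 were called lower and none higher (median -0.25), though 2 were called higher with quantile normalization and 1 with equal medians. The 9 included consecutive steps of fatty acid oxidation: POX1, the acyl-CoA oxidase gene (-1.94 ± 0.05), FOX2, the multifunctional enzyme gene (-1.58 ± 0.04), POT1, the thiolase gene (-1.80 ± 0.09), and also CTA1, the peroxisomal catalase gene (-1.65 ± 0.08).

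Of 22 hexose transporter and glucose sensing genes 2 were called lower, 1 was called higher and 19 were not called, shares near those of all genes, and the median was -0.06, or 0.00 and 0.03 with quantile normalization and equal medians. The lower ones were the high-affinity glucose transporter genes HXT4, with 3.80 and 4.81 FPKM at RC mid, against 37.6 and 37.4 FPKM at RC start (-2.87 ± 0.11), and HXT2, with 67.0 and 69.9 FPKM at RC mid, against 402 and 400.5 FPKM at RC start (-2.53 ± 0.05). The higher one was MAL11, a maltose permease gene, with 1629.8 and 1589 FPKM at RC mid, against 401 and 383 FPKM at RC start (2.03 ± 0.05). The maltase genes MAL12 and MAL32, which are near-identical and can share reads, were higher as well. MAL12 had 977 and 943 FPKM at RC mid, against 218 and 216 FPKM at RC start (2.14 ± 0.06). MAL32 had 625 and 616 FPKM at RC mid, against 139.8 and 137 FPKM at RC start (2.15 ± 0.06). The permease and the maltase messages were all about 4-fold higher, and no RC mid library came near an RC start library.

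In glycolysis 4 of 21 genes were called higher and none lower, and the median, -0.06, became 0.45 with quantile normalization and 0.04 with equal medians. HXK1, a hexokinase gene, had 3734 and 3637 FPKM at RC mid, against 1186 and 1151 FPKM at RC start (1.66 ± 0.06), and GLK1, the glucokinase gene, had 960.2 and 917 FPKM at RC mid, against 431 and 426 FPKM at RC start (1.13 ± 0.06). TDH1, the least abundant glyceraldehyde-3-phosphate dehydrogenase gene at RC start, had 1229.7 and 1233 FPKM at RC mid, against 518 and 497 FPKM at RC start (1.28 ± 0.03). ADH1, the fermentative alcohol dehydrogenase gene, had 1599 and 1558 FPKM at RC mid, against 708 and 702 FPKM at RC start (1.16 ± 0.06), opposite to ADH2. In the TCA cycle 3 of 18 genes were called higher and 2 lower (median 0.24). The higher ones were MDH1, CIT1 and IDH2, which act in the mitochondrial cycle (1.25 ± 0.04, 1.08 ± 0.03 and 1.09 ± 0.05). CIT3, a minor citrate synthase gene, was among the lower ones, with 83.4 and 90.2 FPKM at RC mid, against 320.3 and 317 FPKM at RC start (-1.87 ± 0.07). Outside the lists, the glycerol phosphatase gene GPP1 fell by 3.26 to 37.5 and 32.7 FPKM at RC mid, against 342 and 345 FPKM at RC start, the mitochondrial malic enzyme gene MAE1 changed by -3.09 ± 0.08 and the mitochondrial aldehyde dehydrogenase gene ALD5 by -2.66 ± 0.07.

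Storage carbohydrate genes were higher at RC mid. All 20 trehalose and glycogen genes had values above 0, 14 were called higher and none lower, and the median was 1.29, next to the 1.27 of core histones (1.44 and 1.85 with quantile normalization). PGM2 (chromosome XIII, 475897 to 477606), the phosphoglucomutase gene that feeds sugar into storage, had 372 and 371 FPKM at RC mid, against 76.4 and 76.4 FPKM at RC start, 4.86-fold higher (2.27 ± 0.05, adjusted p = 9.77e-16). The branching enzyme gene GLC3 had 430.2 and 421 FPKM at RC mid, against 115 and 111 FPKM at RC start (1.90 ± 0.04). Enzymes that break glycogen down rose as well: the phosphorylase gene GPH1 had 455 and 465 FPKM at RC mid, against 125 and 133 FPKM at RC start (1.83 ± 0.05), and the debranching enzyme gene GDB1 77.0 and 76.7 FPKM at RC mid, against 19.2 and 19.2 FPKM at RC start (1.95 ± 0.06). TSL1, a subunit gene of trehalose synthase, changed by 1.80 ± 0.09. RGI1, known for a role in respiratory growth, was the largest rise among protein-coding genes with a standard name, with 1294 and 1308 FPKM at RC mid, against 226 and 224 FPKM at RC start (2.53 ± 0.07). Other large rises were EGO4 (2.10), ISF1 (1.86) and the zinc finger regulator gene USV1 (1.79).

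Of 45 stress and heat shock genes 12 were called higher and 3 lower (median 0.55). RTC3 had 684 and 656 FPKM at RC mid, against 173 and 150.1 FPKM at RC start (2.05 ± 0.13), and the chaperone genes HSP78 and HSP42 changed by 1.63 ± 0.04 and 1.45 ± 0.06. GPX1, a peroxidase gene, changed by 1.39 ± 0.07. The members that fell were GPP2, a glycerol phosphatase gene of the osmotic response (-1.998 ± 0.11), ALD4, a mitochondrial aldehyde dehydrogenase gene with 1118 and 1099.7 FPKM at RC mid, against 3367 and 3452 FPKM at RC start (-1.62 ± 0.03), and SSA3, an Hsp70 gene (-1.01 ± 0.06), which lay at the 2-fold minimum and fell short of it with quantile normalization (-0.96), with equal medians (-0.92), without RC start library B (-0.99) and without RC mid library B (-0.97). HSP12, a small heat shock protein gene, had 8498 and 8477 FPKM at RC mid, against 4973 and 5059.7 FPKM at RC start and was not called (0.76 ± 0.05).

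Mitochondrial genes were higher by small amounts, mostly under 2-fold. All 74 mitochondrial ribosomal protein genes had higher values at RC mid, from 0.31 to 1.20 (median 0.77), and 6 passed the 2-fold minimum, or 22 with quantile normalization and 19 with equal medians. MRPL24 had 212 and 211 FPKM at RC mid, against 91.1 and 92.1 FPKM at RC start (1.20 ± 0.06), MRPL25 changed by 1.17 ± 0.07, RSM23 by 1.13 ± 0.13 and MRPL38 by 1.07 ± 0.06. Of 40 nuclear genes of the respiratory chain and ATP synthase 3 were called higher (median 0.60, 39 above 0), or 16 with quantile normalization. They were CYC7, the minor cytochrome c gene (1.28 ± 0.12), ATP20 (1.21 ± 0.16) and QCR10 (1.15 ± 0.07). Among 45 mitochondrial import and assembly genes 7 were called higher and none lower (median 0.56), with 13 and 12 called higher under quantile normalization and equal medians. CBP6, needed to make cytochrome b, had 184 and 202 FPKM at RC mid, against 63.2 and 65.8 FPKM at RC start (1.56 ± 0.11). COX11 and COX17, which bring copper to cytochrome oxidase, changed by 1.32 ± 0.07 and 1.25 ± 0.07, and MIA40, an import receptor gene of the intermembrane space, by 1.23 ± 0.05.

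Core histone genes, which are normally expressed in S phase to package new DNA, were higher: 7 of 8 were called and the eighth, HTA1, had 2085 and 2067 FPKM at RC mid, against 1100.0 and 1059 FPKM at RC start (0.94 ± 0.04), just under the 2-fold minimum. All 8 were called with quantile normalization and with equal medians. HTA2, for histone H2A, had 1636 and 1647 FPKM at RC mid, against 578 and 551 FPKM at RC start (1.54 ± 0.05). HHF2, for histone H4, had 3386 and 3432 FPKM at RC mid, against 1193 and 1167 FPKM at RC start (1.53 ± 0.04). HTB2, for histone H2B, changed by 1.48 ± 0.04 and HHF1, the second H4 gene, by 1.31 ± 0.04. The 8 genes took 2.08% and 2.09% of the summed FPKM at RC mid, against 0.73% and 0.72% at RC start. For all 8 genes both RC mid libraries lay above both RC start libraries, by 1.92-fold (HTA1) to 2.91-fold (HTA2) in the means. Copies of 1 histone are near-identical in places and can share reads.

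Other lists of DNA replication and division genes had smaller median changes than the core histones. Of 64 replication and cohesion genes 5 were called higher and 1 lower (median 0.41), and quantile normalization and equal medians gave 12 and 11 called higher. PDS5 and MCD1, for a cohesin regulator and a subunit of the cohesin ring, changed by 1.29 ± 0.10 and 1.09 ± 0.09, CDC21, the thymidylate synthase gene, by 1.19 ± 0.07 and the primase gene PRI2 by 1.05 ± 0.06. Without RC start library A PRI2 was at 0.97 and not called. CDC6, which loads the replicative helicase, was low and fell, with 1.35 and 1.13 FPKM at RC mid, against 4.80 and 5.76 FPKM at RC start (-1.49 ± 0.22). Of 20 G1 cyclin and Start genes 1 was called, FAR1, an inhibitor gene of G1 cyclin kinase that is also on the a-type mating list, with 42.7 and 43.2 FPKM at RC mid, against 96.4 and 91.1 FPKM at RC start (-1.11 ± 0.06). None of 27 mitotic cyclin and mitotic exit genes was called. The largest values there were 0.57 ± 0.16 for the Aurora kinase gene IPL1 and -0.56 ± 0.13 for the mitotic cyclin gene CLB2, and the median, -0.07, was 0.03 with equal medians. None of 13 daughter cell and septum genes was called either, with ISR1 at 0.71 ± 0.08 and DSE2 at -0.40 ± 0.06, nor any of 23 spindle and tubulin genes, with SPC98 at 0.96 ± 0.16 and KIP1 at 0.80 ± 0.11, although 1 of the 23 was called higher with quantile normalization and with equal medians.

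Of 76 transcription regulator genes 3 were called higher and 6 lower, shares near those of all genes (3.38% and 10.2%). The higher ones were TOS4, a gene switched on at the G1 to S transition, with 63.4 and 62.8 FPKM at RC mid, against 23.9 and 20.5 FPKM at RC start (1.47 ± 0.10), CAT8 as given above, and GIS1, a regulator gene of entry into stationary phase (1.02 ± 0.07). GIS1 was not called without RC start library A (0.95) or without RC mid library B (0.99). TOD6, whose product represses ribosome assembly genes, was itself lower, with 21.99 and 21.8 FPKM at RC mid, against 85.3 and 84.8 FPKM at RC start (-1.91 ± 0.09). IFH1, a coactivator gene of ribosomal protein genes, changed by -1.33 ± 0.09 and BAS1, an activator gene of purine synthesis, by -1.32 ± 0.09. The remaining ones were the hypoxic repressor genes ROX1 (-1.37 ± 0.07) and MOT3 (-1.54 ± 0.15) and the sterol uptake regulator gene SUT1 (-1.28 ± 0.13). In TORC1 and growth signalling 2 of 28 genes were called, both higher. TPK2, which encodes a catalytic subunit of protein kinase A, had 154 and 152 FPKM at RC mid, against 69.1 and 67.0 FPKM at RC start (1.16 ± 0.05), and TPK3, for another such subunit, was not called (-0.51 ± 0.10).

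The remaining lists had shares of called genes near or below those of all genes. In phosphate response 2 of 20 were called lower, PHO90 (-1.70 ± 0.08) and PHM6 (-1.43 ± 0.29), and in iron uptake 1 of 20, FTR1 (-1.37 ± 0.06). In sterol synthesis 3 of 25 were called lower, ERG11 (-1.43 ± 0.05), ERG1 (-1.33 ± 0.04) and ERG25 (-1.08 ± 0.05), and in inositol, phospholipid and fatty acid synthesis 1 of 21, INO1 (-1.13 ± 0.04). The calls of ERG25 and INO1 were lost with quantile normalization, and that of ERG25 with equal medians too. Of 20 meiosis and sporulation genes 1 was called higher, the septin gene SPR3, with 20.6 and 23.3 FPKM at RC mid, against 7.96 and 9.16 FPKM at RC start (1.26 ± 0.15). No member was called among 34 proteasome genes (median 0.30; RPN3 0.66, RPN8 0.62), 30 autophagy and vacuolar protease genes (median 0.39; ATG29 0.97, APE1 0.94; 3 were called higher with quantile normalization and with equal medians), 15 INO80 complex genes (IES5 -0.76, RVB1 -0.66), 11 genes of SWR1 and H2A.Z (SWC3 -0.57, SWR1 0.34) or 4 alpha-type mating genes (MF(ALPHA)1 -0.50, STE3 -0.37), and the 15 a-type mating genes had 1, FAR1. Of 14 genes often taken as constant 1 was called, PMA1, the plasma membrane proton pump gene, with 482 and 478 FPKM at RC mid, against 1538 and 1514 FPKM at RC start (-1.67 ± 0.04). ACT1, the actin gene, had 1641 and 1613 FPKM at RC mid, against 1606 and 1600.3 FPKM at RC start (0.02 ± 0.04), and SEC61, a translocon gene, was at 0.00 ± 0.08. Among the largest changes were also 2 small nucleolar RNAs, which mRNA libraries capture poorly: SNR58 had 13.2 and 15.5 FPKM at RC mid, against 0 and 3.19 FPKM at RC start (2.90 ± 0.99, adjusted p = 0.0179) and SNR66 8.04 and 13.0 FPKM at RC mid, against 5.64 and 0 FPKM at RC start (2.13 ± 0.68). Without RC start library A the change of SNR58 was 1.87 and without RC start library B that of SNR66 was 0.76, neither of them called.

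The step was set in the course of all 6 labelled phases of the culture. Of the 662 genes called lower 612 had their highest mean of the 6 phases at RC start and 417 their lowest at OX late, and 124 had their lowest at RC mid itself. NSR1, for example, had means of 673, 53.4, 39.0, 50.1, 58.6 and 160.1 FPKM from RC start through RC mid, OX mid, OX late and RB start to RB late. Large-subunit assembly genes stood at medians of -1.82, -2.24, -2.40, -1.94 and -1.15 relative to RC start over the 5 later phases. Of the 220 genes called higher 169 had their lowest mean at RC start, 76 their highest at RC mid and 96 their highest at OX late. Some acetate, ethanol and peroxisomal genes took another course. Of 20 acetate, ethanol and glyoxylate genes 9 had their lowest mean at RC mid and 8 at RC start, and 11 had their highest at OX late. ADH2 fell to a mean of 191 FPKM at RC mid, against 1562 FPKM at RC start, and had 6169, 15703, 12312 and 7095 FPKM in the phases that followed. POX1 likewise had means of 164, 41.9, 1213, 2002, 1335 and 798 FPKM in the order of the phases. Of 37 peroxisomal and fatty acid oxidation genes 22 had their lowest mean at RC mid and 31 their highest at OX late, and the list's median was -0.25 at RC mid and 1.55 at OX late. DNA replication and cohesion genes had their highest mean at RC mid in 38 of 64 cases, as had 34 of 40 respiratory chain genes. By the call itself, no gene called lower could peak at RC mid or have its lowest mean at RC start. The reverse held for genes called higher, so their counts follow in part from the selection. The shares of all genes with their highest or lowest mean at each phase were not counted. These courses are descriptions of phase means, and the phases beyond RC mid were not tested here.

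**Figure D4:**
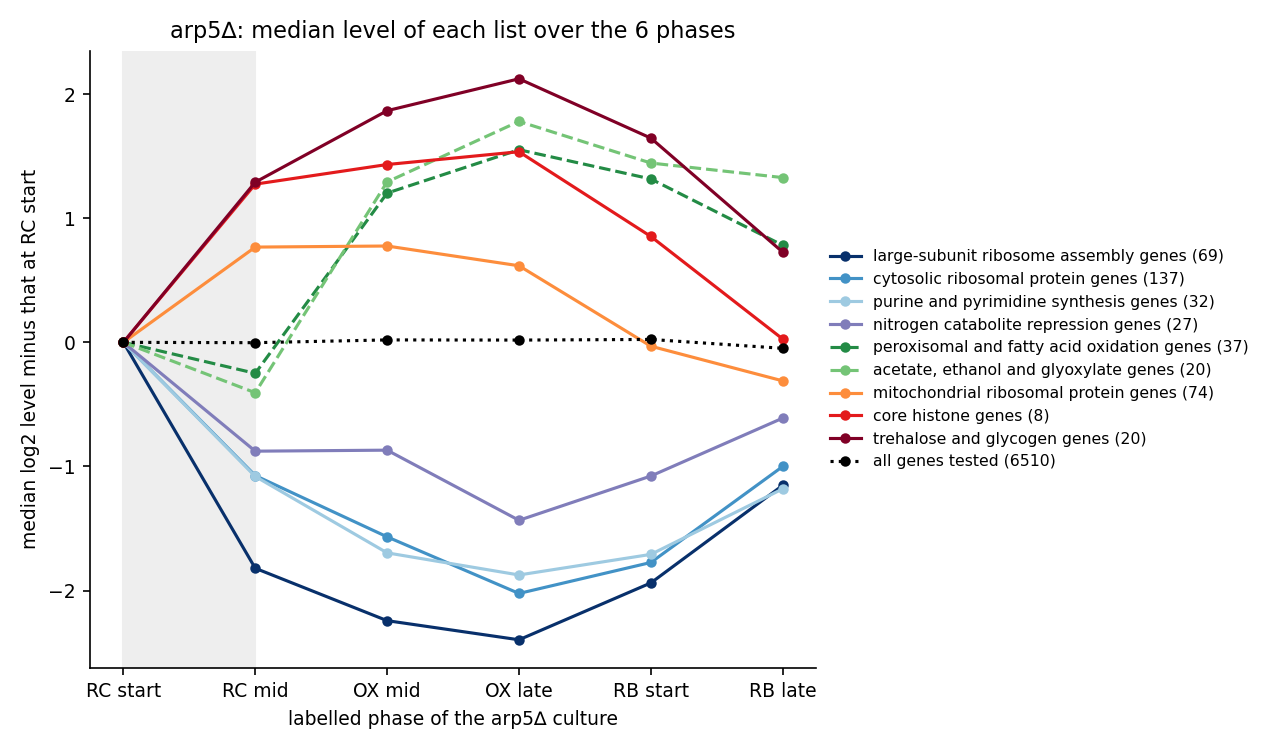
Median level of 9 lists and of all genes over the 6 labelled phases of the arp5∆ culture. The y axis is the median over the genes of a list of log2(mean FPKM + 1) minus its value at RC start, the shaded band is the step from RC start to RC mid, and acetate and peroxisomal genes (dashed) dip within it and rise after it while growth genes stay below 0 to RB late.

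The same labels in wild type gave a different step. There 643 genes were called higher at RC mid (9.88%) and 374 lower (5.75%). Of the 662 genes that fell in arp5∆, 438 were called higher in wild type, 66.2% of the arp5∆ list and 68.1% of the wild-type one, and 24 were called lower. Of the 220 that rose in arp5∆, 66 were called lower in wild type (30% and 17.6% of the lists) and 1 higher. Large-subunit assembly genes had a median change of -1.82 in arp5∆ and 1.66 in wild type, and cytosolic ribosomal proteins -1.07 in arp5∆ and 1.61 in wild type. For mitochondrial ribosomal proteins it was 0.77 in arp5∆ and -1.23 in wild type, and for core histones 1.27 in arp5∆ and -1.67 in wild type. The difference itself, the arp5∆ step minus the wild-type step, was positive and called for 900 genes (13.8%) and negative and called for 1170 (18%). The excess of negative differences depended on the scaling: quantile normalization gave 1049 positive and 1068 negative, and equal medians 1092 and 1077. With the deposited scaling the difference was called negative for all 69 large-subunit assembly genes, for 61 of 64 small-subunit processome genes and for 136 of 137 ribosomal protein genes. It was called positive for 73 of 74 mitochondrial ribosomal protein genes and for all 8 histone genes. MEP2 had the most negative difference, -6.53 ± 0.07 (adjusted p = 6.78e-20), with a change of -3.07 in arp5∆ and 3.46 in wild type. NSR1 followed with -6.48 ± 0.11, GPP1 with -5.70 ± 0.15, DBP2 with -5.67 ± 0.13, NOG2 with -5.59 ± 0.17 and FCY2 with -5.57 ± 0.06. The most positive differences were those of MAL32 (4.89 ± 0.08), HTA2 (4.73 ± 0.07), HHF2 (4.67 ± 0.05), HTB2 (4.66 ± 0.05), MAL12 (4.42 ± 0.08) and HXK1 (4.15 ± 0.08). Where the labels fall in each culture's own course differs: the mean of NSR1 was highest at RC start in arp5∆, with 673 FPKM, and at OX mid in wild type, with 1463 FPKM, so that the genotype and the place of a label in the cycle cannot be told apart here.

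The arp5∆ step was therefore also set beside the wild-type step from OX mid to OX late, a match that was chosen from these same data, so that their likeness is no independent finding. In that wild-type step 803 genes were called higher (12.3%) and 959 lower (14.7%). Of the genes that fell in arp5∆ 472 fell there too (71.3% of the arp5∆ list and 49.2% of the wild-type one), and of those that rose 175 rose there too (79.5% and 21.8%). The 2 steps still differed in 289 genes with a positive (4.44%) and 307 with a negative difference (4.72%). With quantile normalization these counts were 221 and 285, and with equal medians 253 and 364. Septum and daughter cell genes stood out among the lists by the share called: the difference was called positive for 11 of 13. Their median change was 0.23 in arp5∆ and -2.10 in wild type. Of 45 stress and heat shock genes 15 had a called positive difference and 2 a called negative one. EGT2 and SCW11, which encode cell wall proteins of daughter cell separation, had differences of 3.87 ± 0.08 and 3.59 ± 0.11. In arp5∆ EGT2 had 104 and 104 FPKM at RC mid, against 85.3 and 83.2 FPKM at RC start, whereas its mean in wild type was 15.7 FPKM at OX late, against 197 FPKM at OX mid. Other genes with large positive differences were ANS1 (4.62 ± 0.22), GRE1 (4.19 ± 0.12), SNR58 (3.96 ± 1.41) and HSP12 (3.51 ± 0.07). The SNR58 call was lost when any 1 of 5 libraries was left out, with values of 2.93 to 4.07. For ANS1, GRE1 and HSP12 the arp5∆ change was -0.16, -0.14 and 0.76, and the wild-type change -4.78, -4.33 and -2.75.

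The most negative differences from the wild-type OX step included G1 to S genes. In arp5∆ YOX1, a repressor gene of early G1 promoters, had 40.2 and 35.0 FPKM at RC mid, against 63.5 and 59.7 FPKM at RC start (-0.70, not called). The wild-type change was 1.74, and the difference was -2.44 ± 0.14 (adjusted p = 4.5e-10). The cyclin genes PCL1 and CLB6 had arp5∆ changes of -0.06 and -0.20, wild-type changes of 2.25 and 1.99, and differences of -2.31 ± 0.09 and -2.20 ± 0.51, although CLB6 was near 1 FPKM in arp5∆. DSF1 (-2.37 ± 0.33), HXK1 (-2.26 ± 0.08) and AIM26 (-2.19 ± 0.35) were the other genes of this end. HXK1 rose in both cultures, by 1.66 in arp5∆ and by 3.92 in wild type. Among TCA cycle genes 8 of 18, and among trehalose and glycogen genes 8 of 20, had a called negative difference, with list medians of 0.24 and 1.29 in arp5∆, against 1.20 and 1.93 in wild type. Of the 15 a-type mating genes 9, and of the 20 G1 cyclin and Start genes 6, had one as well. The a-type median was -0.34 in arp5∆ and 0.66 in wild type, and the summed a-cell marker levels of the 4 arp5∆ libraries are given above. Cytosolic ribosomal proteins had a median of -1.07 in arp5∆ and -0.62 in wild type, and the difference was called negative for 4 of 137. For large-subunit assembly the medians were -1.82 in arp5∆ and -2.60 in wild type, and for the small-subunit list -1.72 in arp5∆ and -2.31 in wild type, with called positive differences in 13 of 69 and 5 of 64 genes.

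**Figure D5:**
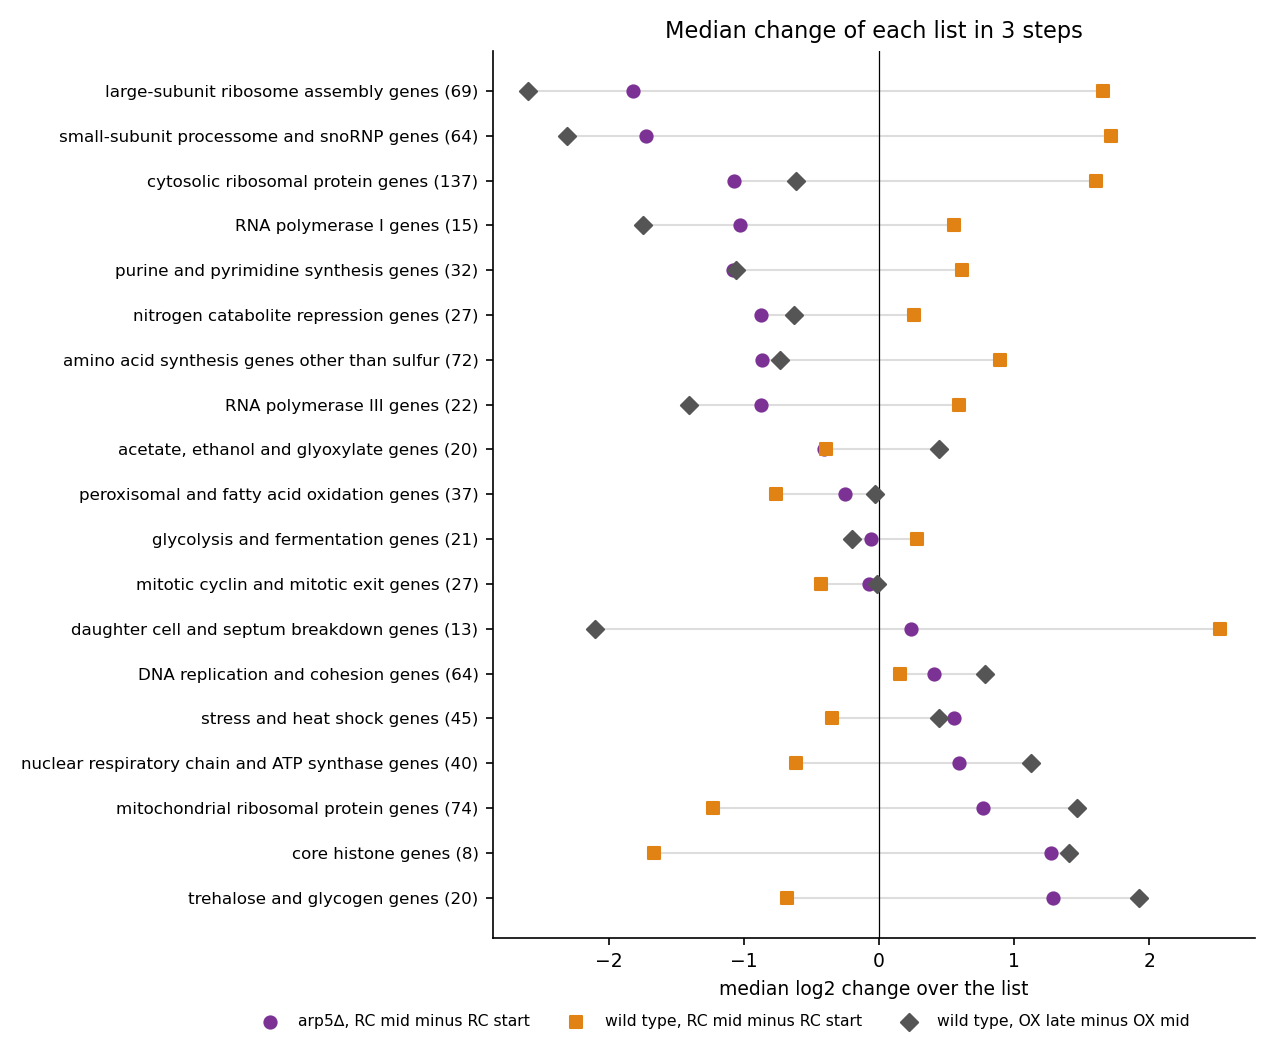
Median log2 change of 19 lists in 3 steps. Circles are arp5∆ RC mid minus RC start, squares wild type RC mid minus RC start and diamonds wild type OX late minus OX mid, each a median over the genes of the list (numbers in brackets), and for the growth lists at the top the circles lie on the side of the diamonds and opposite the squares.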

How the data were processed

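RNA was measured by sequencing of mRNA kit libraries. The deposited FPKM were made by the authors, and per the submitters' processing notes Bowtie2 and DESeq2 were used with sacCer3; the sources used here give neither the counting settings nor the strand, so that reads of genes which overlap, antisense ones too, cannot be separated. Low values were whole multiples of what 1 read is worth in 97.1 to 98.5% of cases (tolerance 0.1 read) in the 4 libraries, which gave the read totals. All 24 cycle RNA libraries, in 12 genotype-by-phase groups, were fitted as log2(FPKM + 1) by limma 3.58.1 (R 4.3.3) with a variance trend, for 6510 of 6840 genes, those averaging 1 FPKM or more (12 residual degrees of freedom, prior 4.15). A called gene moved by 1 or more in log2, up or down, with an adjusted p (Benjamini-Hochberg) below 0.05. Differences between steps are contrasts of that fit, and log2 changes understate those of low genes.

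The members and the gene lists were chosen with earlier results of these data known. The genes named are ARP5, the 15 largest called rises and falls with a standard name, up to 4 called members per list and direction (the 2 largest changes where a list had none), all called transcription regulators, the 6 largest differences from wild type each way and constitutive genes. Isozymes, paralogs and genes shown for their place in a list were chosen after their values were seen. Coordinates are from RefSeq R64 (sacCer3). A and B numbers did not pair the libraries: the correlation of A minus B between the arp5∆ phases was 0.055. Some genes that the rule would name are not reported here. The ATAC-seq and rapamycin tables and promoter sequences were not used here. Precision beyond technical replicates is unknown.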

Additional observations from a re-analysis of the deposited data

Results flagged for a closer look

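The step from RC start to RC mid in arp5∆ differed from the wild-type step between the same labels in 900 genes with a positive and 1170 with a negative difference, by a test of the difference itself in limma. With quantile normalization these counts were 1049 and 1068, and with equal medians 1092 and 1077. The list counts were 61 small-subunit processome, 69 large-subunit assembly and 136 cytosolic ribosomal protein genes with a negative difference, and 73 mitochondrial ribosomal protein and 8 core histone genes with a positive one. Single genes with the largest negative differences were MEP2 (-6.53), NSR1 (-6.48), GPP1 (-5.70), DBP2 (-5.67), NOG2 (-5.59) and FCY2 (-5.57). Those with the largest positive differences were MAL32 (4.89), HTA2 (4.73), HHF2 (4.67), HTB2 (4.66), MAL12 (4.42) and HXK1 (4.15). The place of a label in each culture's cycle moves with genotype here, with NSR1 highest at RC start in arp5∆ and at OX mid in wild type.

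Against the wild-type step from OX mid to OX late the difference was positive and called for 289 genes and negative for 307, and it was called positive for 11 of the 13 daughter cell and septum genes. Quantile normalization gave 221 positive and 285 negative differences over all genes, and equal medians 253 and 364. ANS1 (4.62), GRE1 (4.19), SNR58 (3.96), EGT2 (3.87), SCW11 (3.59) and HSP12 (3.51) had the largest positive differences. YOX1 (-2.44), DSF1 (-2.37), PCL1 (-2.31), HXK1 (-2.26), CLB6 (-2.20) and AIM26 (-2.19) had the largest negative ones. No group here has the 4 samples that a check for single outlying libraries needs.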

How the results depend on the processing

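Quantile normalization moved the count of genes called higher by more than 1.5 times, to 359 against 220, with 530 lower against 662; the cause was not tested. Equal medians gave 317 and 554. The other settings left both counts within 1.5 times: 228 and 667 when no gene was filtered out, 248 and 672 at pseudocount 0.1, 202 and 625 for genes averaging 10 FPKM or more, 232 and 673 in a fit of the 4 libraries alone, and 194 and 578 among protein-coding genes alone, a setting chosen after seeing the data. Leaving out 1 library gave 223 to 230 higher and 646 to 672 lower. The A and B numbers share only a number, and a replicate block gave 220 and 663 (906 and 1171, and 293 and 310, for the differences from the wild-type label and OX steps). Equal medians moved the median of all genes in the difference from the wild-type label step to 0.19, against 0.06. Of 2308 alternative values for 153 single-gene results none reversed and 23 lost their call, in SNR58, SNR66, PRI2, SSA3, ERG25, INO1 and GIS1. SNR58 lost it with a pseudocount of 0.1 (4.65, adjusted p = 0.0718 in limma). With 6.83 to 8.70 M reads a library, changes of genes near 1 FPKM rest on few reads, and 1 culture per genotype limits all results.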

Other observations

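In some families, genes that encode the same activity differed in the arp5∆ step. The families below were picked after their values were seen, so their values are descriptions and do not show how common such differences are. Others moved alike: the glycerol phosphatase genes GPP1 and GPP2 were both called lower. Of 59 ribosomal protein gene pairs, 2 differed by at least 1 on the log2 scale, and the median difference was 0.19. Of the alcohol dehydrogenases ADH1 rose (1.16 ± 0.06) while ADH2 fell (-3.02 ± 0.04). Of the hexose kinases HXK1 and GLK1 rose, while HXK2 had 442 and 423 FPKM at RC mid, against 469 and 457 FPKM at RC start (-0.10 ± 0.04). TDH1 rose, while TDH2 and TDH3, which are more abundant, were not called (-0.06 ± 0.04 and 0.20 ± 0.04). The mitochondrial citrate synthase gene CIT1 rose and CIT3 fell. Of 5 aldehyde dehydrogenase genes ALD4, ALD5 and ALD6 fell, and ALD2 and ALD3 were not called, at 0.27 ± 0.10 and 0.90 ± 0.06. IMD3 and IMD4, for GMP synthesis, fell (-1.19 ± 0.06 and -2.11 ± 0.08), and IMD2 was not called (-0.32 ± 0.14). The phosphoglucomutase gene PGM1 was not called (0.25 ± 0.07), against the rise of PGM2.

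Called genes had neighbours called in the same direction more often than the share of all genes called, as a description with no test. Among 5741 pairs of adjacent protein-coding genes, 88 had both members called lower. A gene counts once in each pair it belongs to, so the shares given are of pair members and not of genes. For the lower call, 15.3% of the called members had a called partner in the pair, while 10.1% of all members were called. The share was 16.7% for divergent pairs (9.97% of all members), 16.9% for pairs on the same strand (9.91%) and 10.9% for convergent pairs (10.4%). Of pairs with both members called higher there were 19 (9.87%, against 3.35% of all members), 9 of them divergent. MEP2 and AAH1 are one such pair among the lower genes, on the same strand. The part of reads from overlapping gene ends was not tested.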
